A study of Homo sapiens with 6 samples.

Results

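Regulators of stem and progenitor cells, 10 in all and chosen by gene symbol, were followed through 6 RNA-seq libraries of the human endometrioid carcinoma line HEC-1B. These 10 genes are MECOM, MYC, KLF4, KLF5, SOX2, SOX4, SOX9, BMI1, MSI2 and LIN28B, out of 23284 gene symbols with a value in each library. The cells were sorted by flow cytometry on aldehyde dehydrogenase (ALDH), whose activity is widely taken as a sign of stem-like tumour cells, and the series asks how cultures differ in the passage from a low to a high ALDH1A1 state. One group (high-potential) holds HEC-1B cells named for high ALDH potential and marked accelerated. Another (parental accelerated) holds plain HEC-1B cells marked accelerated, and the last (high-to-low) holds plain HEC-1B cells marked as passing from high to low ALDH. Below, parental libraries are the 4 of plain HEC-1B cells. Each group has 2 libraries, all from 1 cell line with no drug or allele named. The sample descriptions carry the words ALDH-high in every library, the high-to-low ones included, and the high-potential descriptions add the code a2-PAM, which the labels do not explain. No high-potential culture marked high to low was analysed here, so the label and the transition cannot be told apart between high-potential and high-to-low cells.

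These genes act at different levels of cell identity. MECOM encodes a zinc finger protein of the PRDM family, also known as EVI1, that maintains blood stem cells and binds the CtBP corepressors. MYC drives growth and ribosome production, and KLF4, SOX2 and MYC belong to the factors that reprogram fibroblasts to pluripotency. KLF5 keeps epithelial cells proliferating, SOX9 and SOX4 mark progenitors in many epithelia, and SOX9 is present in the glands of the endometrium. BMI1 is a subunit of Polycomb repressive complex 1, and MSI2 and LIN28B bind RNA, LIN28B as a block to let-7 microRNA maturation.

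All values are FPKM (fragments per kilobase of transcript, scaled to mapped fragments), so levels of different genes are compared per length. ALDH1A1, the sorted marker, had 352.5 and 303.6 FPKM in high-potential, 26.7 and 316.9 in parental accelerated, and 28.4 and 9.44 in high-to-low libraries, so parental accelerated replicate 1 lay within the high-to-low range. Relative depth ran from 0.807 (high-potential replicate 2) to 1.07 (high-to-low replicate 1), with high-potential replicate 1 set to 1. The epithelial markers KRT8 and KRT18 were above 47 FPKM in every library. KRT8 had 49.4 and 47.1 FPKM in high-potential, 96.9 and 104.1 in parental accelerated and 90.6 and 107.7 in high-to-low libraries, and fell by 1.03 on the log2 scale in high-potential cells against both parental groups (limma adjusted p = 0.0385). EPCAM had 3.49 and 2.16 FPKM in high-potential libraries, against 4.43 to 10.6 in parental ones (-0.98, limma adjusted p = 0.132). KRT7 stood the other way, at 11.6 and 13.7 FPKM in high-potential libraries, against 1.27 to 5.27 in parental ones (1.62, limma adjusted p = 0.096). The groups overlapped for KRT18, KRT19, CLDN4 and MUC1. The part of these markers in the results below was not tested. CDH1 stayed at or below 0.0868 FPKM. In the marker lists of other cell types, 8 of 9 haematopoietic, 5 of 5 endothelial and 5 of 6 fibroblast genes were under 1 FPKM in all 6 libraries. The exceptions were HBB, which reached 1.42 FPKM, and THY1, a surface protein shared by several cell types. THY1 had 154.5 and 108.5 FPKM in high-potential, 297.1 and 8.04 in parental accelerated, and 313.9 and 272.5 in high-to-low libraries.

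MECOM was nearly silent in high-potential cells and well expressed in parental ones. It is annotated on the long arm of chromosome 3, on the minus strand. RefSeq (GRCh38.p14) lists 3 start windows for MECOM, each of 300 bases around a start. They are printed because the files hold 1 value for the gene as a whole, which does not say from which of these starts its transcripts came. Window 1 is chr3:169663663-169663962, window 2 is chr3:169147422-169147721 and window 3 is chr3:169146490-169146789, all on the minus strand and written 5′ to 3′ along the gene. Capitals mark matches, on either strand, to the GC box GGGCGG, the E-box CACGTG, the TATA box TATAAA, the CCAAT box CCAAT, the GATA core AGATAA and the SOX and TCF core ACAAAG.
MECOM window 1: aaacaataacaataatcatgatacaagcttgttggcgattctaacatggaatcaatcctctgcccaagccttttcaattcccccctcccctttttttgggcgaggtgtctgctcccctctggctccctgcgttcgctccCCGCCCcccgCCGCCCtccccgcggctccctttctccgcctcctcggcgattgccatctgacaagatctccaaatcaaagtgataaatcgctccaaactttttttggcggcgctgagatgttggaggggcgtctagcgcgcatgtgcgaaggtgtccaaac
MECOM window 2: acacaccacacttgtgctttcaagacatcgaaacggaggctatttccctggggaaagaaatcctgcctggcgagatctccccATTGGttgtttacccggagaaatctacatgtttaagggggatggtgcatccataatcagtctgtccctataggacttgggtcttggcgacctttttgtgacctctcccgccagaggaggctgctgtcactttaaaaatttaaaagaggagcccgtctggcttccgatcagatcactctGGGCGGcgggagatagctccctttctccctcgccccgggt
MECOM window 3: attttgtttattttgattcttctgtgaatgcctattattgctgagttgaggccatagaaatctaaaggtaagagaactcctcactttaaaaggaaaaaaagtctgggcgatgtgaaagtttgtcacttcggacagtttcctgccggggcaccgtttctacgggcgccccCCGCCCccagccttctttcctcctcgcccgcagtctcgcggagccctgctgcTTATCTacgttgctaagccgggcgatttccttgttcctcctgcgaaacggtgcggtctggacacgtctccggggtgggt
Window 2 starts 516241 bases, and window 3 starts 517173 bases, downstream of window 1. Their GC content was 54.7, 52.3 and 52.3%, against a median of 58.7% over 34943 RefSeq start windows of the same length. GC boxes matched 2, 1 and 1 times in windows 1, 2 and 3, and 44.9% of all windows hold at least 1. Window 2 also held 1 CCAAT box (34.7% of all windows) and window 3 held 1 GATA core (10.4% of all windows), a letter run like the sites that the first zinc finger domain of MECOM is known to bind. No window held the E-box (7.23% of all windows), the TATA box (11.6%) or the SOX and TCF core (16.1%). The authors' files use build hg19, so no position was carried over between these windows and the measured values.

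MECOM had 0.102 and 0.122 FPKM in high-potential libraries, against 21.2 and 11.1 FPKM in parental accelerated and 23.7 and 21.8 FPKM in high-to-low libraries. Both high-potential values were far below every parental value, and the lowest parental value was that of parental accelerated replicate 2. That library had ALDH1A1 at 316.9 FPKM, near the high-potential libraries (352.5 and 303.6), while the other parental libraries had 9.44 to 28.4 FPKM. For every member, high-potential against parental is thus largely also high against low ALDH1A1. The part of ALDH1A1 level in the differences was not tested. In bulk RNA, fewer cells that express a gene and less of its RNA per cell cannot be told apart. MECOM values were not whole multiples of a step, so its fragments could only be estimated. From the steps of SOX2 and KLF4 (below) and their longest GENCODE transcripts, 1 fragment on 1 kilobase is worth about 0.0965 FPKM in high-potential replicate 1. In replicate 2 it is worth about 0.12. Other members gave different values, from 0.0938 (KLF4) to 0.114 (SOX4) in replicate 1. By this estimate MECOM had about 1.06 and 1.02 fragments per kilobase of transcript in the high-potential libraries. The estimate was 204.3 and 104.8 for parental accelerated and 263.2 and 211.1 for high-to-low cells. The numbers that open the sample descriptions differ between replicates 1 and 2 of the accelerated groups, and the labels do not call them a batch. MECOM was at 0.102 FPKM in high-potential against 21.2 in parental accelerated libraries under one number, and at 0.122 against 11.1 FPKM under the other.

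Mean MECOM was 0.112 ± 0.0141 FPKM in high-potential cells, against 16.2 ± 7.12 FPKM in parental accelerated cells (SD, n = 2 each), a 143.7-fold lower level. This is -3.88 on a log2 scale (SE 0.314, limma adjusted p = 0.0101). Against high-to-low cells, at 22.7 ± 1.32 FPKM (SD, n = 2), the level in high-potential cells was 202.1-fold lower (log2 difference -4.41, SE 0.314, limma adjusted p = 0.00607). Both differences are on the scale of log2(FPKM + 1), where a gene near 0 can fall no further, and that scale understates the fold. The folds rest on an estimated 1.06 and 1.02 fragments per kilobase in the high-potential libraries, so their size is imprecise. Against the mean of both parental groups the difference in log2 was -4.15 (SE 0.272, limma adjusted p = 0.00311), the sixth most negative of 12135 tested genes. An exact two-sided permutation test of the 2 high-potential against the 4 parental libraries gave p = 0.0667, the smallest its 15 splits allow, and 2 libraries against 2 cannot go below 0.333. The choice of MECOM was made with its difference known, so these p-values describe a gene already singled out. Leaving out either high-potential library kept the differences between -3.87 and -4.43 but ended the calls. The adjusted p was then 0.0862 and 0.133 against parental accelerated, 0.0665 and 0.0834 against high-to-low and 0.0542 and 0.0698 against both, in each pair without replicate 1 first. Without high-to-low replicate 2 the adjusted p against high-to-low was 0.0528.

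**Figure D1:**
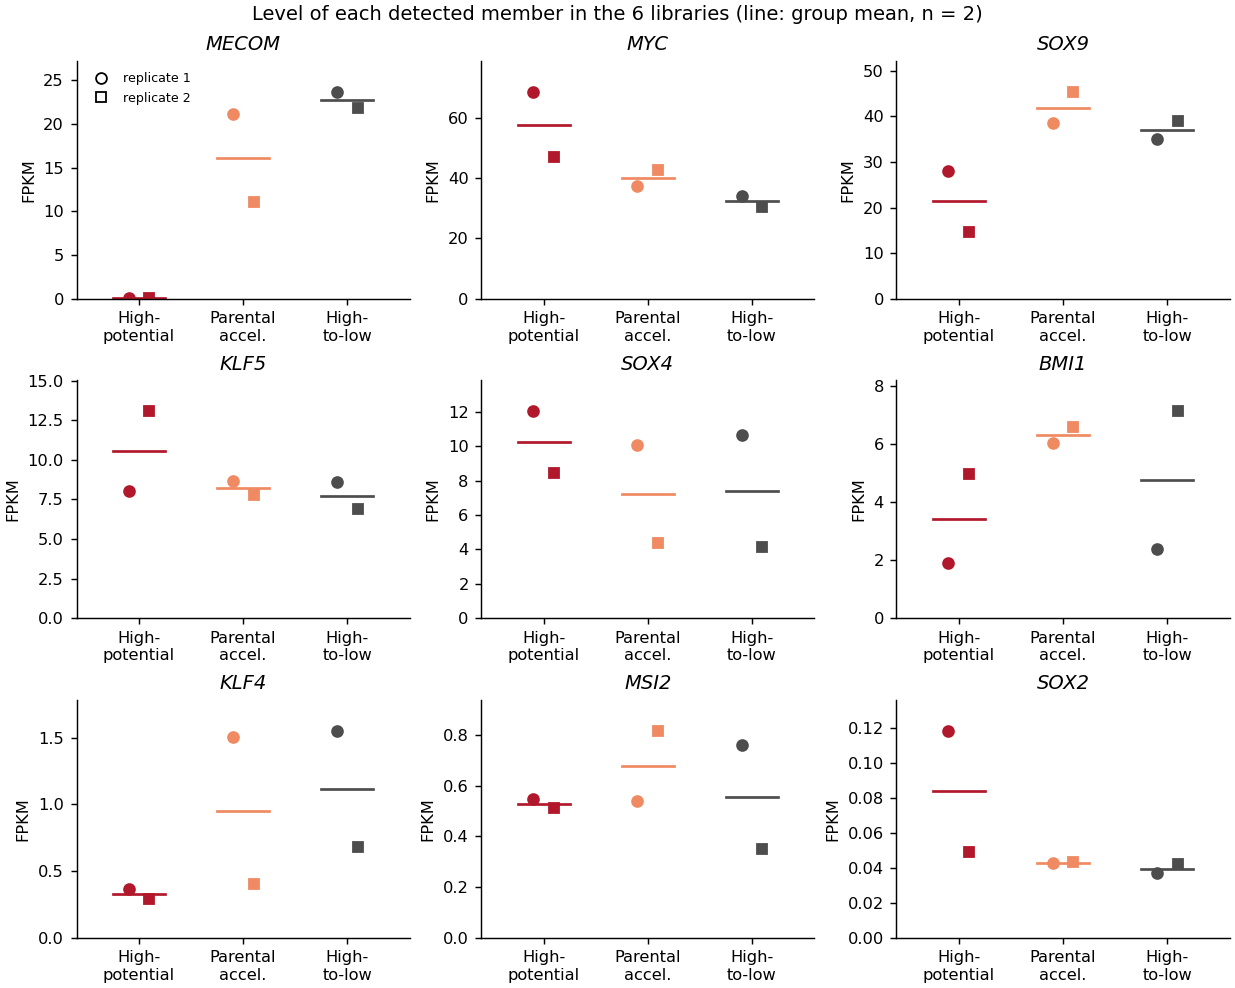
FPKM of the 9 members with a value above 0, in high-potential accelerated, parental accelerated and high-to-low libraries (circles replicate 1, squares replicate 2, lines group means, each panel with its own axis from 0). MECOM lies at 0.102 and 0.122 FPKM in the high-potential libraries and at 11.1 FPKM or more in the parental ones, while SOX4 splits by replicate number in each group.

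MECOM was the single member called in any comparison. Of the 10 members, 7 passed the filter on low values (at least 1 FPKM in at least 2 libraries), and MECOM and KLF4 passed it through parental libraries alone. In high-potential against parental accelerated cells, 0 members were called higher and 1 lower, where 0.494% of all tested genes were called, 0.288% higher and 0.206% lower. Against high-to-low cells the counts were again 0 and 1, where 0.799% of tested genes were called, 0.396% higher and 0.404% lower. Against both parental groups they were 0 and 1, where 2.3% were called, 0.931% higher and 1.37% lower. These comparisons share the high-potential libraries and are not separate evidence. For parental accelerated against high-to-low cells limma called 0 of the 7 members, where 0.0165% of tested genes were called, and 0 had an unadjusted p under 0.05, where 0.972% of tested genes did. Libraries did not overlap for 1 member higher (MYC) and 4 lower (MECOM, SOX9, KLF4 and BMI1) in high-potential cells relative to parental accelerated ones, where 43.4% of tested genes did not overlap, 21.1% higher and 22.3% lower. Against high-to-low cells the counts were 1 higher (MYC) and 3 lower (MECOM, SOX9 and KLF4), where 51.1% did not overlap, 24.7% higher and 26.4% lower. Since MECOM and KLF4 passed the filter only where they are high, their direction was favoured by it, and these counts are a description alone.

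**Figure D2:**
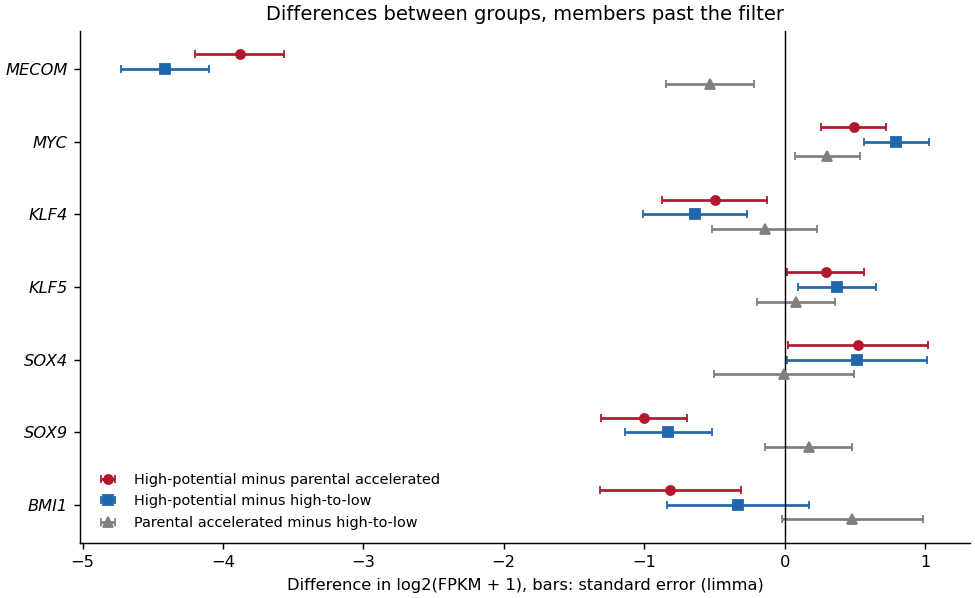
Difference in log2(FPKM + 1) for the 7 members past the filter in 3 comparisons, with bars of 1 standard error from limma. MECOM stands at -3.88 and -4.41 in the comparisons of high-potential cells, and the other members lie between -1.001 and 0.80.

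MYC was the most abundant member in high-potential libraries and stood below SOX9 in the parental ones. It had 68.5 and 46.9 FPKM in high-potential libraries, against 37.5 and 42.7 FPKM in parental accelerated and 34.0 and 30.5 FPKM in high-to-low libraries. Every high-potential value lay above every parental value, and the parental accelerated values lay above the high-to-low ones. The log2 difference of high-potential from parental accelerated cells was 0.49 (SE 0.233, limma adjusted p = 0.408) and from high-to-low cells 0.80 (SE 0.233, limma adjusted p = 0.158), so neither passed. The unadjusted p from limma was 0.077 and 0.0131, and against both parental groups 0.0176, where 19.9% of all tested genes had an unadjusted p under 0.05.

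SOX9 stood the other way round. It had 28.0 and 14.7 FPKM in high-potential libraries, against 38.5 and 45.3 FPKM in parental accelerated and 35.0 and 39.0 FPKM in high-to-low libraries. Both high-potential values were below all 4 parental values, but the high-potential replicates also differed from each other more than any parental pair. The difference in log2 was -1.001 (SE 0.309, limma adjusted p = 0.219) from parental accelerated and -0.83 (SE 0.309, limma adjusted p = 0.238) from high-to-low cells. For MYC and SOX9 the exact permutation p of high-potential against the 4 parental libraries was 0.0667, the smallest possible. Non-overlap was common. In high-potential against all parental libraries MYC was higher and SOX9 lower without overlap, as were MECOM and KLF4, whose direction the filter favoured, and it held for 32.8% of all tested genes, 15.3% higher and 17.5% lower.

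KLF4 was low throughout, and the counts behind it were small. It had 0.367 and 0.289 FPKM in high-potential libraries, against 1.51 and 0.403 in parental accelerated and 1.55 and 0.678 in high-to-low libraries. The high values were those of replicate 1 of each parental group, and parental accelerated replicate 2 lay close to the high-potential libraries. The difference in log2 was -0.50 (SE 0.371, limma adjusted p = 0.618) from parental accelerated and -0.64 (SE 0.371, limma adjusted p = 0.417) from high-to-low cells. The depth behind these values could be read from the values themselves. After scaling to relative depth, the values of KLF4, KLF5, SOX4, MYC and SOX9 were whole multiples of 1 step in all 6 libraries. Each lay within 0.02 of a whole number, and that step is taken as 1 fragment. SOX2 stepped the same way, but the depth used here was refined from its own ratios, so SOX2 is no check. KLF4 then rested on 11 and 7 fragments in high-potential libraries, against 42 and 11 in parental accelerated and 50 and 19 in high-to-low libraries. MYC rested on 677 to 1626 fragments, SOX9 on 487 to 1689, KLF5 on 222 to 364 and SOX4 on 200 to 618. KLF4 thus had the fewest fragments of these 5 genes.

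**Figure D3:**
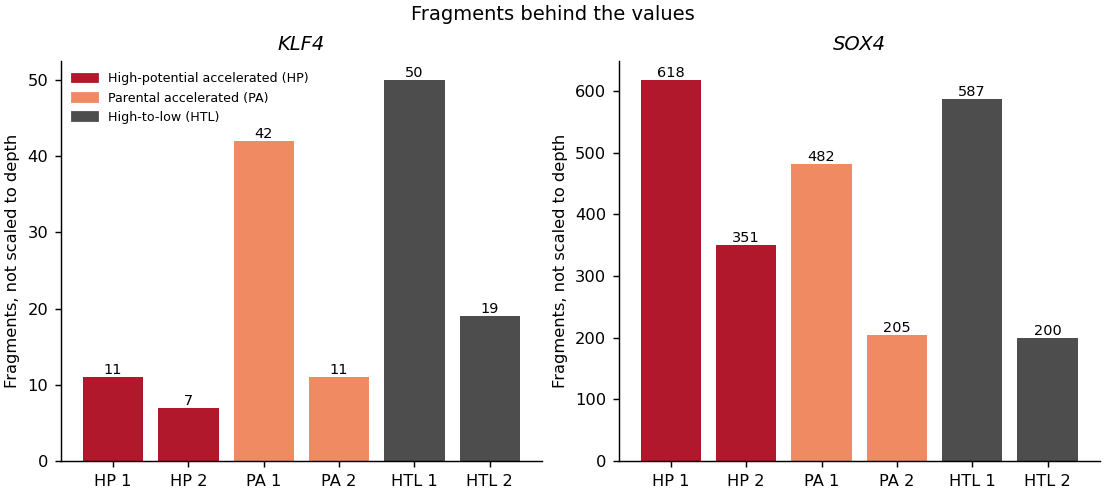
Fragments behind the KLF4 and SOX4 values in each library, as read from the step between depth-scaled FPKM values and not scaled to depth (HP high-potential accelerated, PA parental accelerated, HTL high-to-low). KLF4 rests on 7 to 50 fragments and SOX4 on 200 to 618, and for both the replicate 2 bar is the lower one in each group.

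KLF5 and SOX4 were expressed in every library, with groups that overlap. KLF5 had 8.01 and 13.1 FPKM in high-potential, 8.64 and 7.76 in parental accelerated and 8.59 and 6.87 in high-to-low libraries. High-potential replicate 2 was the highest and replicate 1 lay among the parental values. The difference in log2 was 0.29 (SE 0.275) from parental accelerated and 0.37 (SE 0.275) from high-to-low cells, with limma adjusted p = 0.702 and 0.527. SOX4 had 12.03 and 8.47 FPKM in high-potential, 10.1 and 4.39 in parental accelerated and 10.6 and 4.16 in high-to-low libraries. Here replicate 1 was above replicate 2 in all 3 groups, and the spread within a group exceeded the differences between groups. Among libraries of the same replicate number the high-potential one was the highest both times, and with a replicate block neither difference passed (limma adjusted p = 0.244 and 0.208). The log2 differences were 0.52 and 0.52 (SE 0.498 each), with limma adjusted p = 0.706 and 0.632.

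BMI1 cannot be read from its own row alone, since its exons are shared with the readthrough transcript COMMD3-BMI1, which has a row of its own. The BMI1 row had 1.92 and 4.96 FPKM in high-potential, 6.05 and 6.61 in parental accelerated and 2.38 and 7.14 in high-to-low libraries. The readthrough row, looked up after the BMI1 values were seen, had 18.4 and 16.7 FPKM in high-potential, 15.2 and 22.6 in parental accelerated and 16.1 and 27.6 in high-to-low libraries. Their sum was 20.3 and 21.7 FPKM in high-potential, 21.2 and 29.2 in parental accelerated and 18.5 and 34.7 in high-to-low libraries. By group mean, high-potential cells were lowest in both the BMI1 row and the sum, while the parental groups changed places. High-potential and parental accelerated libraries overlapped in the sum but not in the BMI1 row. For the BMI1 row the log2 difference of high-potential cells was -0.81 (SE 0.503, limma adjusted p = 0.537) from parental accelerated and -0.33 (SE 0.503, limma adjusted p = 0.778) from high-to-low cells.

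MSI2, SOX2 and LIN28B were not expressed, taken as under 1 FPKM in all 6 libraries. MSI2 had 0.546 and 0.514 FPKM in high-potential, 0.542 and 0.817 in parental accelerated and 0.761 and 0.352 in high-to-low libraries, with groups that overlap. SOX2 rested on 3 fragments in high-potential replicate 1 and on 1 fragment in each of the other 5 libraries, 0.118 FPKM at most. SOX2 lies inside the noncoding gene SOX2-OT, at or below 0.437 FPKM, and without strand the fragments of these genes cannot be told apart. LIN28B is listed at 0 in every library. Fitted without the filter, log2 differences of high-potential from parental accelerated cells were -0.13 (SE 0.166, limma adjusted p = 0.791) for MSI2 and 0.05 (SE 0.0502, limma adjusted p = 0.714) for SOX2.

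Plain HEC-1B cells in the accelerated and the high-to-low state were then compared, and 0 members passed. MECOM was lower in the accelerated libraries, with a log2 value of -0.53 (SE 0.314, limma adjusted p = 1), most of it from replicate 2, since the difference without that library was -0.10. MYC differed by 0.30 (SE 0.233) and BMI1 by 0.48 (SE 0.503), and KLF4, KLF5, SOX4 and SOX9 by between -0.14 and 0.17, each with a limma adjusted p of 1. Standard errors of 0.233 to 0.503 limit what these libraries can show. Libraries of these groups did not overlap for MYC (higher) and MECOM (lower), 2 of 7 members, where 24.1% of all tested genes did not overlap, 11.4% higher and 12.7% lower.

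Per length, the order of the members differed between groups. Group means in high-potential libraries ran MYC (57.7 FPKM), SOX9 (21.4), KLF5 (10.5), SOX4 (10.2), BMI1 (3.44, its own row), MSI2 (0.53), KLF4 (0.328), MECOM (0.112), SOX2 (0.0836) and LIN28B (0). MECOM and SOX2 changed places between the replicates, with MECOM at 0.102 and SOX2 at 0.118 FPKM in replicate 1 and at 0.122 and 0.0489 FPKM in replicate 2. Over the 4 parental libraries the means ran SOX9 (39.5 FPKM), MYC (36.2), MECOM (19.4), KLF5 (7.97), SOX4 (7.32), BMI1 (5.55), KLF4 (1.03), MSI2 (0.618), SOX2 (0.0412) and LIN28B (0). SOX9 was above MYC in each parental library and below it in both high-potential libraries. KLF5 and SOX4 are neighbours in both orders, and their ranges over the 6 libraries, 6.87 to 13.1 and 4.16 to 12.03 FPKM, overlap. KLF4 and MSI2 also overlap, with 0.289 to 1.55 and 0.352 to 0.817 FPKM.

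The genes next to MECOM on chromosome 3 showed no change of its size. Of the 5 tested protein-coding genes nearest on each side, 10 of 10 had a negative difference in high-potential cells against both parental groups. These lay between -1.26 and -0.08 on the log2 scale, where the median over all tested genes was 0.00. Limma called 0 of them, where 2.3% of all tested genes were called. BCHE, SERPINI1, GOLIM4 and ARPM1 (4 of 10) had an unadjusted p under 0.05, beside 19.9% of all tested genes. GOLIM4, which encodes a Golgi membrane protein, is the nearest on one side. It had 27.8 and 31.3 FPKM in high-potential, 45.8 and 40.1 in parental accelerated and 49.5 and 46.0 in high-to-low libraries (log2 difference -0.60, SE 0.157, limma adjusted p = 0.107). ARPM1 (now ACTRT3), the nearest on the other side, had 1.72 and 2.01 FPKM in high-potential, 4.25 and 3.23 in parental accelerated and 4.62 and 3.25 in high-to-low libraries (-0.75, SE 0.221, limma adjusted p = 0.139). Both, and SERPINI1 as well, lay below all parental libraries without passing, where 17.5% of all tested genes were lower without overlap. The greatest difference among the neighbours was that of SERPINI1, which encodes the serine protease inhibitor neuroserpin (-1.26, SE 0.28, limma adjusted p = 0.076). MYNN and SEC62, a zinc finger gene and a gene of protein translocation beyond ARPM1, differed by -0.16 and -0.26.

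**Figure D4:**
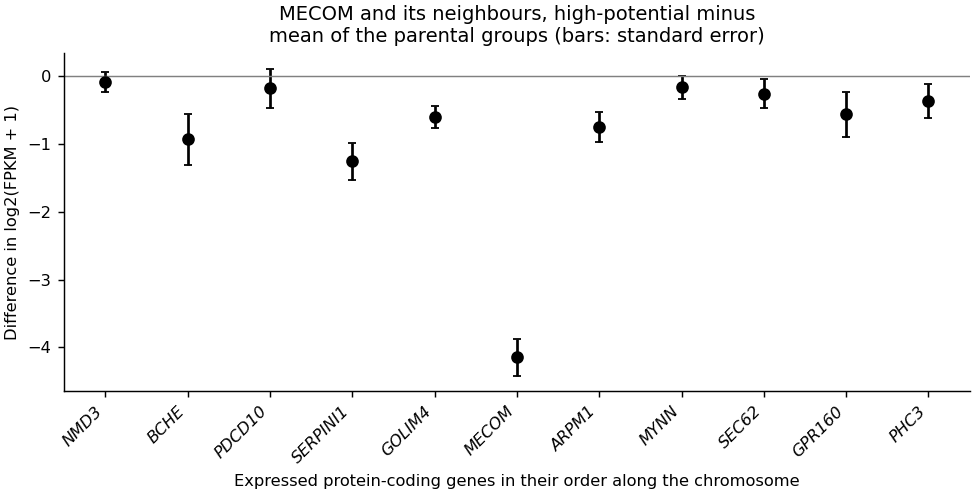
Difference in log2(FPKM + 1), high-potential minus the mean of both parental groups, for MECOM and the 5 tested protein-coding genes nearest on each side in RefSeq order (equal spacing, not to scale), with bars of 1 standard error. MECOM stands at -4.15 and its 10 neighbours between -1.26 and -0.08.

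The 8 protein-coding genes whose centred log2(FPKM + 1) profile lay nearest to that of MECOM over the 6 libraries were VAV3, BEX2, TMEM47, TESC, VCAN, SLC25A43, DBC1 (now BRINP1) and NPAS2. The root mean square distance from MECOM was 0.24 for VAV3, a guanine nucleotide exchange factor, 0.50 for BEX2 and 0.78 for NPAS2, a clock transcription factor. VCAN, which encodes the matrix proteoglycan versican, had 3.46 and 0.257 FPKM in high-potential, 102.5 and 27.4 in parental accelerated and 96.4 and 63.8 in high-to-low libraries. NPAS2 had 1.20 and 0.356 FPKM in high-potential, 14.2 and 8.03 in parental accelerated and 13.7 and 7.17 in high-to-low libraries. Each was chosen for this likeness to MECOM, so their values are a description with no test.

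**Figure D5:**
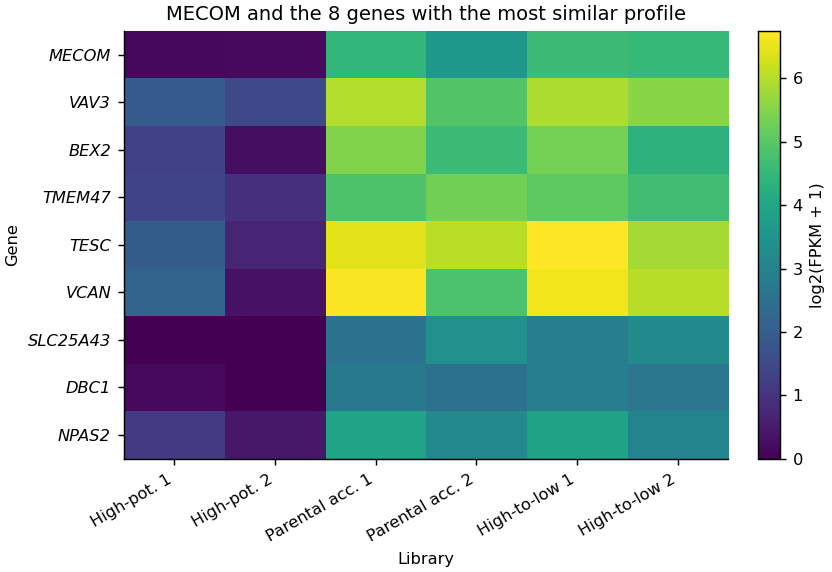
Heat map of log2(FPKM + 1) in the 6 libraries (columns, high-potential first) for MECOM and the 8 genes with the nearest centred profile (rows, in order of distance). VCAN and NPAS2 have 3.46 FPKM or less in the high-potential libraries and 7.17 FPKM or more in the parental libraries.

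Partners and paralogs of MECOM were measured alongside it. Of 21 listed genes 15 were tested and limma called 0 in any of the 4 comparisons; in high-potential cells against both parental groups 3 had an unadjusted p under 0.05 (19.9% of all tested genes did) and the median difference was -0.04, beside 0.00 over all genes. CTBP2, a CtBP corepressor that binds MECOM, had 21.5 and 24.7 FPKM in high-potential, 30.1 and 36.1 in parental accelerated and 34.6 and 37.0 in high-to-low libraries (-0.55, limma adjusted p = 0.141). The histone deacetylase gene HDAC2 had 106.6 and 103.5 FPKM in high-potential, 55.1 and 85.1 in parental accelerated and 60.0 and 73.4 in high-to-low libraries (0.63, limma adjusted p = 0.183). HDAC1 and the histone methyltransferase gene EHMT2 differed by -0.08 and 0.08. ZFPM2, a gene of the same list, had 0.128 and 0.132 FPKM in high-potential, 1.35 and 0.351 in parental accelerated and 1.60 and 1.09 in high-to-low libraries. These do not overlap, and ZFPM2 too passed the filter through parental libraries alone (-0.85, SE 0.289, limma adjusted p = 0.177).

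In the MYC network, 1 of 11 tested genes was called lower in high-potential cells against both parental groups, where 1.37% of all tested genes were called lower. MXD3, which encodes a MAX partner that opposes MYC at its sites, had 4.87 and 4.94 FPKM in high-potential libraries, against 10.4 and 10.5 in parental accelerated and 14.3 and 14.1 in high-to-low libraries. The replicates of each group lay close together and the groups did not overlap. MXD3 fell by 1.16 (log2) in high-potential cells against both parental groups (SE 0.16, limma adjusted p = 0.0302) and by 1.37 against high-to-low cells (limma adjusted p = 0.0432), and did not pass against parental accelerated cells (limma adjusted p = 0.106). MXI1, of the same family, had 64.1 and 32.1 FPKM in high-potential, 33.4 and 32.9 in parental accelerated and 30.8 and 24.1 in high-to-low libraries (limma adjusted p = 0.332 against both). MYCL1 had 2.30 and 0.959 FPKM in high-potential libraries, against 3.46 and 3.86 in parental accelerated and 4.22 and 3.19 in high-to-low libraries (limma adjusted p = 0.15 against both).

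Among 26 tested MYC target genes limma called 0 in any comparison. Against both parental groups 18 were higher and 8 lower in high-potential cells, 4 had an unadjusted p under 0.05 (19.9% of all tested genes did), and the median difference was 0.10, beside 0.00 over all genes. TFRC, the transferrin receptor, had 156.9 and 206.3 FPKM in high-potential, 93.3 and 94.6 in parental accelerated and 99.8 and 131.4 in high-to-low libraries (0.79, limma adjusted p = 0.0981). FBL, the nucleolar methyltransferase fibrillarin, had 51.3 and 62.2 FPKM in high-potential, 85.4 and 86.7 in parental accelerated and 103.1 and 85.4 in high-to-low libraries (-0.66, limma adjusted p = 0.103). NCL, LDHA and HSPD1 differed by 0.25, 0.01 and 0.18.

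Most other KLF and SOX genes were under 1 FPKM in all libraries. Of 17 KLF genes 7 were tested and 9 stayed under 1 FPKM, and of 20 SOX genes 4 were tested and 14 stayed under 1 FPKM, with 8 listed at 0 in all libraries. KLF10 (28.9 to 58.7 FPKM) and KLF6 (28.0 to 57.5 FPKM) were the most abundant KLF genes, above KLF5, and KLF3 stood at 14.5 to 20.7 FPKM. Next to SOX9 and SOX4 the tested SOX genes were SOX13 at 1.60 to 3.64 FPKM and SOX12 at 1.13 to 1.58 FPKM. Among those tested, limma called 0 KLF and 0 SOX genes in any comparison. Against both parental groups 0 tested KLF genes and 1 tested SOX gene, SOX9, had an unadjusted p under 0.05 (19.9% of all tested genes did). Fitted without the filter, KLF15 (lower), SOX18 and SOX7 (both higher) also had an unadjusted p from limma under 0.05. All of these stayed under 1 FPKM, and none passed (limma adjusted p = 0.112, 0.139 and 0.263).

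The partners of BMI1 in Polycomb repressive complex 1 were nearly all expressed. Of 21 genes of the complex and its CDKN2 targets 20 were tested and limma called 0 in any comparison, with 3 at an unadjusted p under 0.05 against both parental groups (19.9% of all tested genes) and a median difference of 0.03. CBX2, a chromobox subunit, had 9.25 and 10.7 FPKM in high-potential libraries, against 5.21 and 6.27 in parental accelerated and 5.46 and 5.10 in high-to-low libraries, with no overlap (0.75, limma adjusted p = 0.091). PCGF1, a paralog of BMI1 in variant complexes, had 35.4 and 36.3 FPKM in high-potential, 26.6 and 23.2 in parental accelerated and 30.7 and 22.6 in high-to-low libraries (0.47, limma adjusted p = 0.227). The catalytic subunit gene RNF2 and the subunit genes PHC2 and YAF2 differed by -0.30, -0.30 and 0.55.

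LIN28A, the paralog of LIN28B with the same action on let-7, had 0.692 and 1.72 FPKM in high-potential libraries, against 0 and 0.0263 in parental accelerated libraries and 0 in both high-to-low libraries. It lay higher in both high-potential libraries than in any parental one but under the filter, and fitted without the filter it did not pass (1.09, SE 0.193, limma adjusted p = 0.0803). LIN28A was named after its values were seen. Of 16 symbols of the LIN28 and let-7 list 10 were tested, and limma called 0 in any comparison. In high-potential cells against both parental groups 9 of 10 had a difference above 0, among them IGF2BP3 at 0.00044. Of the 10 genes, 3 had an unadjusted p under 0.05 (19.9% of all tested genes did). The median difference of the 10 was 0.38, beside 0.00 over all genes. HMGA2, a let-7 target, had 3.86 and 5.23 FPKM in high-potential, 2.84 and 2.47 in parental accelerated and 2.77 and 2.91 in high-to-low libraries (0.56, limma adjusted p = 0.201). IGF2BP2, another let-7 target, had 31.0 and 29.7 FPKM in high-potential, 24.1 and 18.6 in parental accelerated and 26.3 and 17.2 in high-to-low libraries (0.50, limma adjusted p = 0.281). DICER1, the enzyme that cuts microRNA precursors, and ARID3B each differed by 0.69, HMGA1 by -0.25 and IGF2BP3 by 0.00. NUMB, whose translation Musashi proteins repress, had 58.7 and 43.6 FPKM in high-potential, 49.4 and 59.2 in parental accelerated and 43.1 and 34.5 in high-to-low libraries (0.15, limma adjusted p = 0.74), and NUMBL differed by 0.28.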

How the data were processed

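Total RNA was turned into cDNA (SMART-Seq v4) and Nextera libraries, per the labels' protocols, which do not mention strand. The authors deposited 1 FPKM value per symbol for each library. TopHat2 2.0.13, Cuffnorm 2.2.1 and build hg19 are named, per the submitters' processing notes, while annotation and library scaling are not given there. Count models do not suit FPKM and were left aside.

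A gene entered the tests with 1 FPKM or more in 2 libraries or more (12135 genes). Their log2(FPKM + 1) went into 1 limma model (limma 3.58.1, R 4.3.3) with a variance trend, 3 group means and 3 residual degrees of freedom. Calls used Benjamini-Hochberg adjustment over all tested genes of a comparison, two-sided, with a threshold of 0.05. MSI2 and SOX2 came from that model without the filter. The model was also run on simulated data with errors independent between libraries. Those data held no replicate or batch effect, so that run does not bear on such effects. No source says that replicates were separate cultures, so p-values reflect only how these libraries vary, possibly for technical reasons. Relative depth is the modal ratio of low FPKM values. For the fragment steps it was refined over genes of low value whose ratio lay at that of SOX2. RefSeq matched 22023 of 23284 symbols, and 8 of the 10 members had start windows.

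The members, gene lists and comparisons were chosen with earlier results of these data known. Named are the members, the 8 genes with the profile nearest to MECOM, its 5 tested neighbours on each side, ALDH1A1 and, of each list, called genes, the 3 most abundant and the 3 with the greatest difference, of which some are given as counts alone. The alternatives changed pseudocount, filter, scaling, variance model, libraries fitted, block and description-number terms, and left out each library.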

Additional observations from a re-analysis of the deposited data

How the results depend on the processing

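Over 18 settings, 589 of 619 recomputed member differences kept their sign and side of the threshold, 7 lost the call (MECOM, with a library left out) and 23 changed sign, none of them past the threshold. MECOM, MYC and SOX9 kept their sign in all. With all libraries MECOM lay between -6.19 and -3.87 against parental accelerated cells (limma adjusted p 0.0034 to 0.0429), between -6.75 and -4.20 against high-to-low cells (0.0034 to 0.031) and between -6.47 and -4.04 against both.

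The number of genes past the threshold moved more. In high-potential against parental accelerated cells it was 31 with a pseudocount of 0.1, 38 without a filter, 39 with the compared groups alone and 105 with a term for the description number. Against high-to-low cells it was 54 with that pseudocount, 39 without a filter and 54 with the description-number term. Against both parental groups the pseudocount of 0.1 gave 164. In parental accelerated cells set against high-to-low ones these were 4 with the pseudocount, 7 with the compared groups alone, 7 with the description-number term and, without small RNA genes, 0 by limma (136 at an unadjusted p under 0.05). A replicate block gave 546, 944 and 1346 genes in the comparisons of high-potential cells with parental accelerated, high-to-low and both, and changed no member's call. The replicate numbers share no stated origin, with correlations of the replicate differences of 0.187, 0.158 and 0.281 between groups. The cause of these shifts was not tested.

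Sign changes in high-potential against high-to-low cells were MSI2 at 0.013 (pseudocount 0.1) and 0.0039 (no small RNA genes). In parental accelerated against high-to-low cells they were SOX2 at -0.0088 (quantile normalization), SOX4 at 0.0018 (median ratio scaling), 0.073 (no small RNA genes) and 0.37 (description-number term), and KLF4 at 0.088 and KLF5 at -0.044 with that term.

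Leaving out 1 library, which assumes that a lone library varies like the other groups, gave 14 to 38, 13 to 115, 14 to 200 and 4 to 7 genes for high-potential against parental accelerated, high-to-low and both, and for parental accelerated against high-to-low. MECOM ranged from -4.32 to -3.45, -4.47 to -4.36, -4.37 to -3.93 and -0.97 to -0.10 in that order. KLF5 against parental accelerated cells ranged between -0.029 and 0.61. Against high-to-low cells the high-potential difference ranged between -0.068 and 1.10 for SOX4, -0.96 and 0.30 for BMI1 and -0.20 and 0.18 for MSI2, and against both between -0.17 and 0.024 for MSI2. Between the plain HEC-1B groups it ranged between -0.56 and 0.28 for KLF4, -0.062 and 0.22 for KLF5, -0.59 and 0.58 for SOX4, -0.15 and 1.11 for BMI1 and -0.074 and 0.31 for MSI2.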

Other observations

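Transcription factors of the endometrial and Muellerian epithelium were also measured. Of 18 listed genes 10 were tested, limma called 0 in any comparison, and 3 had an unadjusted p under 0.05 in high-potential cells against both parental groups, where 19.9% of all tested genes did. PAX8, a lineage factor of Muellerian epithelium, had 183.4 and 138.4 FPKM in high-potential, 181.6 and 145.1 in parental accelerated and 188.9 and 123.1 in high-to-low libraries, with groups that overlap. ELF3, an epithelial ETS factor, had 17.4 and 30.4 FPKM in high-potential, 9.05 and 4.37 in parental accelerated and 7.70 and 3.22 in high-to-low libraries, without overlap (log2 difference 1.85 against both, limma adjusted p = 0.0788). FOXA1, a pioneer factor, and MSX1, a homeobox factor, differed by 0.61 and -0.73 (limma adjusted p = 0.159 and 0.138). Of 14 pluripotency genes 12 stayed under 1 FPKM, 6 were listed at 0 throughout, and DNMT3B, a DNA methyltransferase, was the single one tested (0.42, limma adjusted p = 0.267).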
